A study of Mus musculus with 2 samples.

Results

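The immediate early and heat shock stress genes were followed here as a fixed list of 38 gene symbols among the 31253 genes in the deposited count matrices, of which 28 were immediate early genes (*Fos*, *Fosb*, *Jun*, *Junb*, *Jund*, *Atf3*, *Egr1*, *Egr2*, *Egr3*, *Ier2*, *Ier3*, *Ier5*, *Nr4a1*, *Nr4a2*, *Nr4a3*, *Dusp1*, *Dusp2*, *Dusp5*, *Zfp36*, *Zfp36l1*, *Btg2*, *Klf2*, *Klf4*, *Klf6*, *Nfkbia*, *Nfkbiz*, *Gadd45b* and *Socs3*) and 10 were heat shock genes (*Hspa1a*, *Hspa1b*, *Hsph1*, *Dnajb1*, *Dnaja1*, *Hspb1*, *Hspa8*, *Hsp90aa1*, *Hspe1* and *Hspd1*). All 38 had at least 20 unique molecular identifiers (UMIs, a count of transcript molecules) in each library. The data were 2 single-cell libraries of sorted Cd45+ leukocytes from B16-F10 tumors, which grow from a melanoma line of C57BL/6 mice, taken on day 10 after subcutaneous injection of 200000 cells. The first library came from Irg1+/+ mice and the second from Irg1-/- mice, a whole-body knockout, backcrossed to C57BL/6J, of the enzyme that makes itaconate (*Acod1* in the files), so that tumor cells carried the intact gene in both. All mice were females, of 8 to 10 weeks in the study's subcutaneous tumor models. Pieces of 100 mm3 of tumor from 3 mice of a genotype were pooled, digested and sorted together, which left 1 library per genotype. Differences between the libraries thus have no replicate check and no test, and they include any other way in which the pools differed. Levels come with exact 95% Poisson intervals, which cover counting error only and are too narrow where a few cells hold most UMIs.

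Immediate early genes are switched on within minutes of a signal, without new protein synthesis. Most code for short-lived transcription factors, such as the AP-1 subunits of the FOS, JUN and ATF families, the zinc finger EGR factors and the NR4A orphan nuclear receptors, or for proteins that end the response, such as the DUSP phosphatases of MAP kinases, the mRNA decay factor *Zfp36* and the NF-κB inhibitor *Nfkbia*. Heat shock genes are driven by heat shock factors that bind repeats of a short element when unfolded protein builds up. Some of their products, such as the inducible HSP70 proteins of *Hspa1a* and *Hspa1b*, are scarce in resting cells, while others, such as *Hspa8* and the mitochondrial chaperonin genes *Hspd1* and *Hspe1*, are made all the time. Both programs also respond to the enzymes and temperatures used to turn a tissue into single cells, and in tumor leukocytes they are seen alongside activation by antigen, cytokines and low oxygen.

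The letters that such factors bind were looked for in the RefSeq promoters of the members (GRCm38.p6, 250 bases before to 50 after a start site), which were given for 32 of the 38. No promoter was given for *Egr1*, *Egr3*, *Ier2*, *Nfkbiz*, *Hspa8* and *Hsp90aa1*, so these were not searched. Searched on both strands, 3 units of the heat shock element (TTCNNGAANNTTC or GAANNTTCNNGAA) were found in 3 of 8 heat shock members (*Hsph1*, *Hspe1* and *Hspd1*) and 0 of 24 immediate early members, against 0.662% of 27025 genes, and 2 units (TTCNNGAA or GAANNTTC, letters that lie within the longer element) in 7 of 8 and 2 of 24 (*Jun* and *Egr2*), against 17.0%. The cAMP response element TGACGTCA was found in *Dusp1* and *Btg2* (2 of 24 immediate early members, 0 of 8 heat shock members, 2.03% of all genes), the CArG box, which serum response factor binds, in *Egr2*, *Dusp5* and *Zfp36* (3 of 24 and 0 of 8, against 1.81%), and the AP-1 element (TGAGTCA or TGACTCA) in 0 of 32, against 5.95%. A match is a description of these windows and not a site of binding, and a gene without a match can carry the element outside its window. The 200 bases before the start are printed 5′ to 3′ for 6 members that recur below, with the matching letters in capitals: *Hspa1a* (chr17:34972157-34972356, minus strand), *Hspa1b* (chr17:34959239-34959438, minus strand) and *Hspe1* (chr1:55087948-55088147, plus strand, shared head to head with *Hspd1*) for the 2-unit heat shock element, *Btg2* (chr1:134079156-134079355, minus strand) and *Dusp1* (chr17:26508473-26508672, minus strand) for the cAMP response element, and *Zfp36* (chr7:28379229-28379428, minus strand) for the CArG box.
Hspa1a: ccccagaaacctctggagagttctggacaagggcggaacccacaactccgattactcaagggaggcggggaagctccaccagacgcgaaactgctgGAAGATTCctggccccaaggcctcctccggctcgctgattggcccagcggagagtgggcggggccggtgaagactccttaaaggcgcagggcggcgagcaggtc
Hspa1b: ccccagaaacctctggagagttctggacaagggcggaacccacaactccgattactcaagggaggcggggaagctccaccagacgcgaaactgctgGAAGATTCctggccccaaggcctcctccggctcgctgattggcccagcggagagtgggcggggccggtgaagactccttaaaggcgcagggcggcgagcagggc
Hspe1: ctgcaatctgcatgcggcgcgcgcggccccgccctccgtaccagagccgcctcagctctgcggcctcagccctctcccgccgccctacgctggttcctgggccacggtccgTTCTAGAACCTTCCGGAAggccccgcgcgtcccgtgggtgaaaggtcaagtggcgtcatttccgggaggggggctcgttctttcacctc
Btg2: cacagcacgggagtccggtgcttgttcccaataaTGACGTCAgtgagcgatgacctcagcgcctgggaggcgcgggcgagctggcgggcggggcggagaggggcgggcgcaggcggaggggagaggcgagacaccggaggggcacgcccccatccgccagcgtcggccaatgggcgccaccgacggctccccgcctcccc
Dusp1: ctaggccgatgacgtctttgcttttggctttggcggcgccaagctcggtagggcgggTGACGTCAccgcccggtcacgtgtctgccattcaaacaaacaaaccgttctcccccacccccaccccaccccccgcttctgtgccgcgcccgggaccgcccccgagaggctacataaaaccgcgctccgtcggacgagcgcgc
Zfp36: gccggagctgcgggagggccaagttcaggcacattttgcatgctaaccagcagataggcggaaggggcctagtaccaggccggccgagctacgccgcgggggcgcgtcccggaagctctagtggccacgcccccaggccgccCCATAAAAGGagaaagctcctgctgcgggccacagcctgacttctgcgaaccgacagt
The *Hspa1a* and *Hspa1b* windows were identical at 296 of 300 positions. Their coding sequences matched in 1918 of 1929 aligned columns and their sequences after the stop codon in 48.1% of columns, so that a read from the transcript end can tell the 2 genes apart while a read from the coding part can be split between them. *Hspd1* and *Hspe1* overlap only at their starts.

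The library labelled Irg1+/+ held 6408 cell barcodes and the library labelled Irg1-/- held 5896, of which 6284 and 5794 had over 200 genes and under 10% mitochondrial UMIs and were kept. They carried 42105693 and 35307041 UMIs of non-mitochondrial genes, with medians of 4528 and 4594.5 per cell, and 36 barcodes occurred in both libraries. *Acod1* was listed at 87.8 and 108 CPM (UMIs per 1000000 UMIs of the library or class) in the libraries labelled Irg1+/+ and Irg1-/- (3696 and 3805 UMIs). A read of the transcript end can lie outside the deleted part and then checks nothing, so that the genotypes rest on the labels. The files held no cell types. Cells were gated by lists of marker genes into 12 classes, written here as "-like", which took 9495 of 12078 kept cells (78.3% and 78.9%), and the other cells had markers of several classes or of none. Each class had at least 1 UMI of every marker on its list, except the eosinophil-like cells with 1 of 8 markers at 0. Marker UMIs also lay outside their own class, since the 8 T cell markers summed to 5488 and 5626 CPM in T cell-like and still to 494 and 290 CPM in neutrophil-like cells. Whether these came from free RNA, doublets or the gate was not tested. The melanoma cell-like cells (60 and 9, with *Dct* at 10479 and 11513 CPM) were not the leukocytes that the sort was set for. UMIs count transcript ends and are not scaled by gene length, so that levels are compared within a gene.

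Immediate early transcripts made up a larger share of the RNA in granulocyte-like cells than in any other class. Summed over the 28 genes, neutrophil-like cells had 35643 CPM (34017 to 37327) with Irg1+/+ and 49475 CPM (48529 to 50435) with Irg1-/-, and 32647 and 34475 CPM in eosinophil-like cells. The next 7 classes, which were monocyte-, macrophage-, NK cell- and B cell-like cells and the type 1, type 2 and migratory dendritic cell-like cells, lay between 15091 and 17167 CPM in the Irg1+/+ library and between 16123 and 20250 in the Irg1-/- library. T cell-like cells followed with 11124 and 11732 CPM, plasmacytoid dendritic cell-like cells with 8716 and 10494, and melanoma cell-like cells had the lowest level with 6928 and 7820. In the Irg1+/+ library the intervals of neutrophil- and eosinophil-like cells overlapped, as did those of B cell-like and type 2 dendritic cell-like, type 2 and type 1 dendritic cell-like, and migratory dendritic cell- and NK cell-like cells, and in the Irg1-/- library those of monocyte-, NK cell- and migratory dendritic cell-like cells, in this order, overlapped. The granulocyte-like classes were small and shallow, with 29 and 114 neutrophil-like cells (median 1653 and 1775.5 UMIs) and 58 and 84 eosinophil-like cells (median 758.5 and 986.5).

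**Figure D1:**
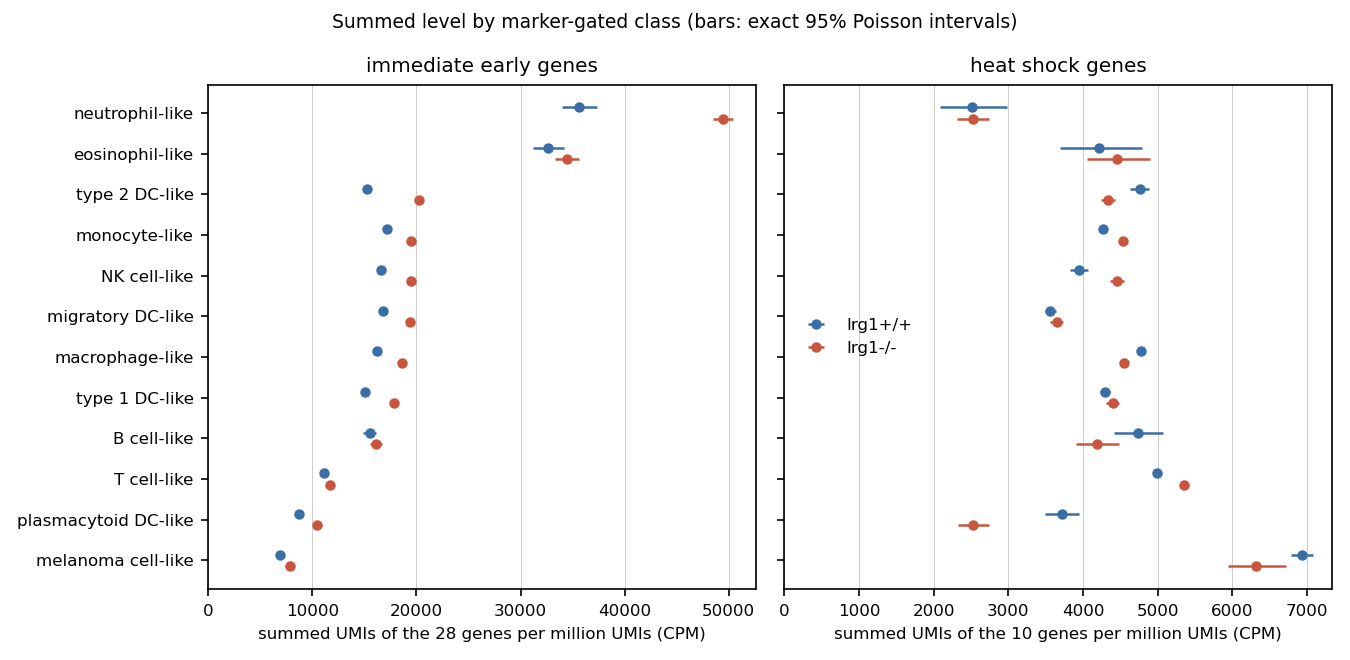
Summed CPM (x axis, linear from 0) of the 28 immediate early genes (left) and the 10 heat shock genes (right) in the 12 marker-gated classes (y axis). Points are the Irg1+/+ library (blue) and the Irg1-/- library (red) and bars are exact 95% Poisson intervals. Immediate early levels are highest in neutrophil-like cells (35643 and 49475 CPM) and heat shock levels in melanoma cell-like cells (6938 and 6324 CPM).

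Single members were counted as raised in a class when they were at least 3-fold higher than in all other gated cells in both libraries, with at least 50 UMIs in the class. By this measure 14 of the 38 members were raised in some class, where the same held for 24.8% of all 11143 genes that could be counted. In neutrophil-like cells it was met by 8 of the 26 immediate early members with enough UMIs (19.7% of all genes) and by none of the 5 heat shock members with enough, while 2 immediate early and 5 heat shock members had too few UMIs to be counted. *Nfkbiz*, a nuclear IκB protein that steers NF-κB target genes, stood at 1897 and 2429 CPM in neutrophil-like cells against 274 and 298 in the other gated cells. *Nfkbia* stood at 3813 and 4868 CPM against 825 and 719, and *Egr1* at 3359 and 5148 CPM against 570 and 580. *Dusp1*, the MAP kinase phosphatase that closes p38 and JNK signaling, reached 3655 and 5823 CPM against 913 and 1231. The antiproliferative gene *Btg2* (1502 and 2420 CPM against 421 and 718), the quiescence factor *Klf2* (830 and 765 against 156 and 188), the growth arrest gene *Gadd45b* (632 and 737 against 162 and 206) and *Egr3* (435 and 257 against 118 and 72.2) completed the set. *Zfp36* had its highest level in the same class (3991 and 5804 CPM), but was 2.82-fold and 3.51-fold above the other gated cells and so missed the limit in 1 library. *Klf4*, a factor of the monocyte lineage, went the other way, with 19.8 and 61.8 CPM in neutrophil-like against 256 and 348 in monocyte-like cells. The neutrophil-like values rest on 29 and 114 cells with medians of 1653 and 1775.5 UMIs. Nuclear-retained RNA summed to 2845 and 2724 CPM in these cells, against 1651 and 1635 in all kept cells. Its part in the neutrophil-like values was not tested.

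In eosinophil-like cells 6 of 18 immediate early members with enough UMIs and 1 of 3 heat shock members were raised (13.7% of all genes). They were *Nfkbia* (3326 and 2952 CPM), *Egr1* (3272 and 2095), *Dusp1* (3850 and 4282), *Nfkbiz* (994 and 1048), *Junb* (2621 and 3466) and *Btg2* (1591 and 2267), together with the HSP40 cochaperone *Dnaja1*, at 1482 and 1743 CPM against 385 and 402 elsewhere. The nuclear-retained RNAs *Malat1* (6309 and 5491 CPM against 1157 and 1140) and *Neat1* (850 and 846 against 146 and 144), which can mark RNA quality, were raised in the same cells, and their part in these values was not tested. The values rest on shallow cells. When each cell was brought down to 2000 UMIs, 2 and 4 eosinophil-like cells remained, *Dnaja1* was 1.57-fold higher, *Junb* 1.61-fold, *Dusp1* 1.91-fold and *Nfkbia* 2.05-fold, and *Nfkbiz* was at 0.893 of the level elsewhere, in the library with the smaller fold.

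Among the dendritic cell-like classes, *Egr3* was the clearest member. It stood at 816 CPM (Irg1+/+) and 515 CPM (Irg1-/-) in type 1 dendritic cell-like cells and at 42.9 and 37.3 CPM in all other gated cells, a ratio of 19.0 and 13.8. *Egr1* and *Egr2* had no such peak in these cells (362 and 560, and 170 and 185 CPM). *Egr3* was also raised in B cell-like cells (429 and 223 CPM), where the smaller fold fell from 3.11 to 1.82 when cells were held to under 5% mitochondrial UMIs. Migratory dendritic cell-like cells, which carry *Fscn1*, a bundler of actin, as their most abundant marker, had 3 of 28 immediate early members raised, against 6.35% of all genes. These were the orphan nuclear receptor *Nr4a3* (2555 and 2379 CPM against 587 and 594), the mRNA decay factor *Zfp36l1* (1627 and 1536 against 404 and 392) and *Gadd45b* (467 and 641 against 141 and 180). The same cells had low *Fos* (513 and 639 CPM) and *Egr1* (124 and 176). *Nr4a1* did not follow *Nr4a3* and was at 314 and 422 CPM there, under its level in NK cell-like (918 and 1319) and type 1 dendritic cell-like cells (1180 and 1325). In NK cell-like cells the phosphatase *Dusp2* was raised, at 1361 and 1544 CPM against 343 and 409, and it was next highest in B cell-like (655 and 655) and T cell-like cells (547 and 689).

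**Figure D2:**
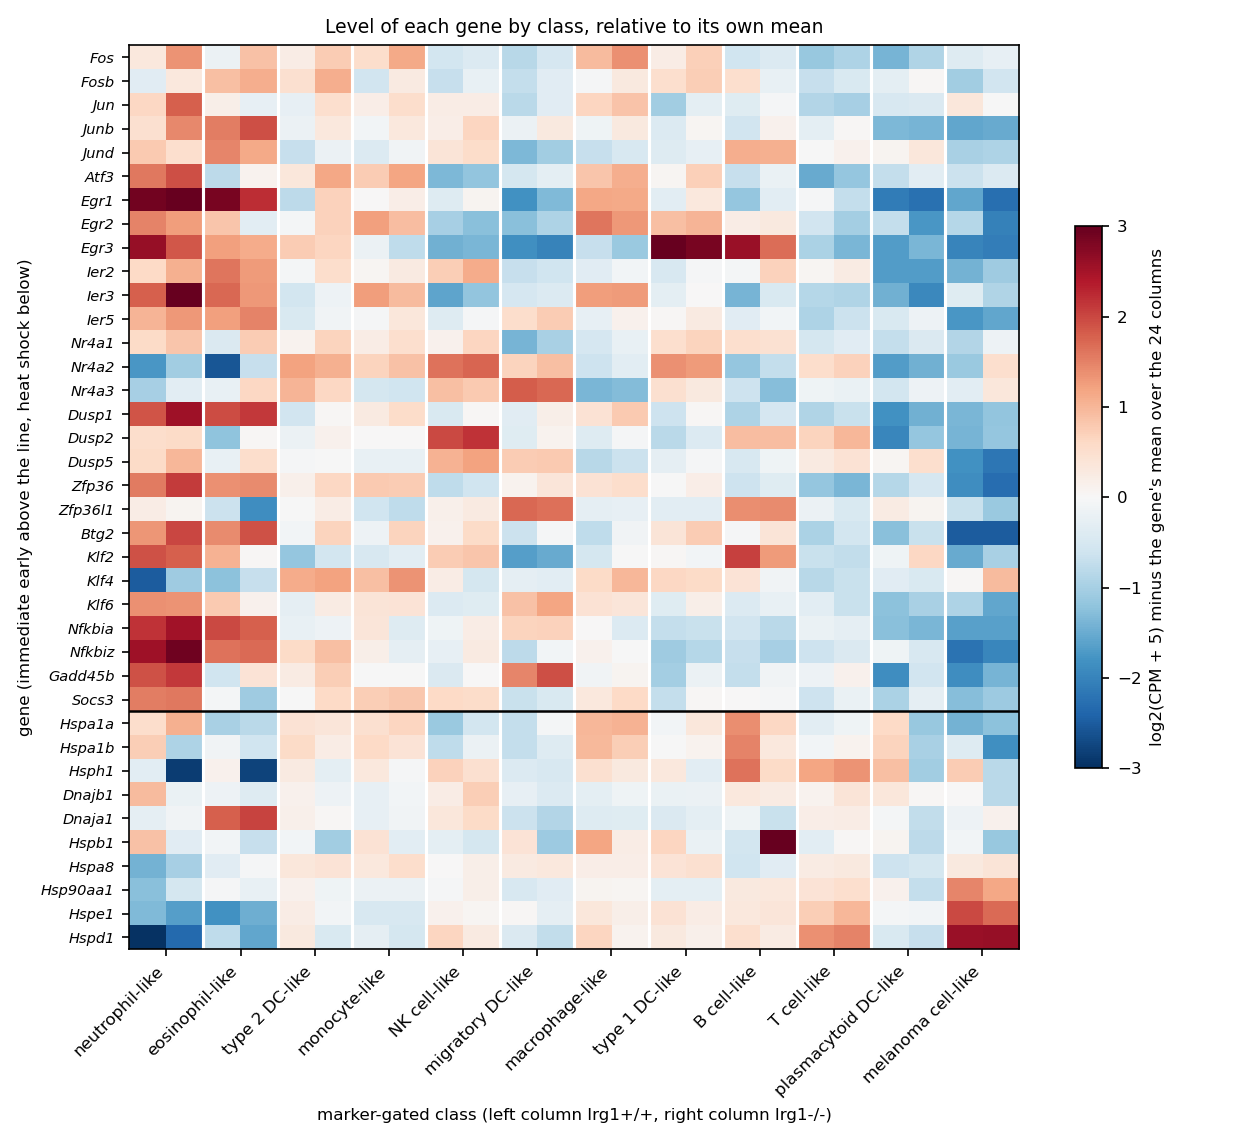
Level of each of the 38 genes (rows) in the 12 classes (x axis, 2 columns each, Irg1+/+ left and Irg1-/- right), as log2(CPM + 5) minus the gene's own mean over the 24 columns (color bar, red higher and blue lower, saturated at 3). *Nfkbia*, *Nfkbiz* and *Egr1* are red in the neutrophil- and eosinophil-like columns, *Egr3* in the type 1 dendritic cell-like columns and *Hspd1* in the melanoma cell-like columns, and the single dark *Hspb1* square in B cell-like cells rests on 1 cell with 49 of its 58 UMIs.

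More immediate early members were 2-fold higher in myeloid- than in lymphoid-like cells, and most differed by less. All myeloid-like cells (3005 and 3049) were at least 2-fold above the T, NK and B cell-like cells (1806 and 1475) in both libraries for 8 of 28 immediate early members, where 14.5% of all genes did the same, and 1 of 28 was at least 2-fold higher in lymphoid-like cells, where 16.0% of all genes were. T cell-like cells held 9188321 of 10436310 and 5364595 of 7414692 lymphoid-like UMIs, so that the lymphoid-like level is mostly theirs. The median log2 ratio of myeloid- over lymphoid-like cells was 0.59 and 0.57 over the 28 members and -0.27 and -0.27 over all genes. The AP-1 subunit *Fos* was at 1392 and 1919 CPM in myeloid-like and 438 and 537 in lymphoid-like cells. *Atf3*, a stress-induced AP-1 partner that restrains inflammatory genes, was at 431 and 580 against 98.7 and 126, and *Zfp36* at 1850 and 2087 against 634 and 631. *Egr2*, *Egr3*, *Ier3*, *Dusp1* and *Klf4* were the others. *Egr3* was as low in macrophage-like (39.7 and 28.2 CPM) as in lymphoid-like cells (37.8 and 28.2). *Dusp2* was the lymphoid member, at 633 and 901 CPM against 273 and 338. *Jund*, another AP-1 subunit, was likewise higher in lymphoid-like cells (1319 and 1532 against 832 and 1035), without reaching 2-fold, and *Junb* was near equal (764 and 1050 against 813 and 1124).

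Within T cell-like cells the summed immediate early level was 10324 and 10823 CPM in CD8, 19085 and 18729 in CD4 and 11114 and 12394 in regulatory T cell-like cells. Cycling T cell-like cells were lower than the others (9066 and 9816 against 13208 and 14667), and were also deeper (median 12917 and 13993.5 UMIs against 3155 and 2466). Among macrophage- and monocyte-like cells, those marked by hypoxia genes had 19656 and 21121 CPM and the rest 15449 and 18704. Cells with 5 to 10% mitochondrial UMIs had lower immediate early levels (12112 and 15236 CPM) than cells under 5% (15283 and 18333), and cells under 1000 UMIs had higher ones (17111 and 22208) than deeper cells (15070 and 18189). The part that depth and cell quality play in the order of the classes was not tested.

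Across the 23 pairs of class and library with at least 20 cells, on the log2(CPM + 10) scale, the members whose level ran closest to the summed immediate early level were *Dusp1* (Pearson's r = 0.94) and *Btg2* (0.93), followed by *Zfp36*, *Nfkbia*, *Junb* and *Ier5* (0.90 each), and *Klf4* (-0.33), *Nr4a2* (-0.13), *Zfp36l1* (-0.10) and *Nr4a3* (0.04) did not follow it. Of genes outside the list the nearest were *Pim1* (0.94), a survival kinase, *Mcl1* (0.92), an antiapoptotic BCL2 protein, *Rabgef1* (0.90), *Kdm6b* (0.90) and *Ppp1r15a* (0.90). These are descriptions without a test, because the points share 2 libraries and the shallow granulocyte-like classes hold the highest immediate early levels.

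Heat shock transcripts were spread more evenly over the leukocytes. Their 10 genes summed to 4663 CPM (4642 to 4684) and 4608 CPM (4586 to 4631) in all kept cells. Melanoma cell-like cells had the highest level with 6938 and 6324 CPM and neutrophil-like cells the lowest with 2509 and 2524, which in the Irg1-/- library overlapped with the 2527 CPM of plasmacytoid dendritic cell-like cells. T cell-like cells came next to the melanoma cell-like cells with 4996 and 5361 CPM. Most neighbours among the other classes overlapped, between 3564 and 4775 CPM in the Irg1+/+ library. None of the 10 heat shock members was at least 2-fold higher in myeloid-like cells (14.5% of all genes), *Hspa1a* being nearest with log2 ratios of 0.96 and 0.91, and the count was 1 without the top doublet scores, with thinned cells and with clusters. In lymphoid-like cells 1 of 10 was at least 2-fold higher, no larger a share than the 16.0% of all genes. That gene was *Hspd1*, with 472 and 451 CPM in lymphoid-like and 233 and 161 in myeloid-like cells.

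The members differed in the classes where they were high. The mitochondrial chaperonin pair was highest in melanoma cell-like cells, where *Hspd1* (HSP60) stood at 1164 and 1183 CPM against 306 and 237 in all other gated cells and *Hspe1* (HSP10), printed above with its heat shock element, at 825 and 679 CPM. Both were next highest in T cell-like cells (497 and 536, and 343 and 410 CPM) and low in neutrophil-like cells (19.8 and 33.3, and 79.0 and 61.8). *Hsp90aa1*, the inducible cytosolic HSP90, was at 1997 and 1610 CPM in melanoma cell-like, 953 and 1017 in T cell-like and 508 and 567 in migratory dendritic cell-like cells. *Hspa8*, the constitutive HSP70, had the most UMIs of all members (79517 and 70876) and one of the flattest profiles among the larger classes, between 1597 CPM in NK cell-like and 2133 CPM in type 1 dendritic cell-like cells of the Irg1+/+ library and between 1811 CPM in NK cell-like and 2284 CPM in monocyte-like cells of the Irg1-/- library. *Hspa1a* and *Hspa1b* were higher in macrophage-like cells (439 and 451, and 584 and 492 CPM) than in T cell-like cells (173 and 198, and 275 and 318). *Hsph1* (HSP110) had the opposite order, with 141 and 123 CPM in macrophage-like and 230 and 259 in T cell-like cells. *Hspb1* (HSP27) was low in all kept cells, at 30.8 and 23.6 CPM. It was at most 50.3 CPM in any class other than the B cell-like cells of the Irg1-/- library (288 CPM, most of it in 1 cell). Genes outside the list that followed the summed heat shock level over the 23 points were *Fkbp1a* (r = 0.88), *Eprs* (0.88), *Cct7* (0.88), a subunit of the cytosolic chaperonin, *Hdac2* (0.85) and *Nudcd1* (0.85), and of the members *Hsp90aa1* (0.86) and *Hspd1* (0.83) were nearest, whereas *Hspa1a* (-0.11), *Dnajb1* (-0.14) and *Hspb1* (0.02) did not follow it.

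The inducible heat shock genes were concentrated in few cells. *Hspa1a*, *Hspa1b*, *Hsph1*, *Dnajb1* and *Hspb1* together gave at least 1% of the UMIs in 136 of 6284 cells (2.16%, Clopper-Pearson interval 1.82 to 2.55%) of the Irg1+/+ library and in 89 of 5794 cells (1.54%, 1.24 to 1.89%) of the Irg1-/- library. These cells held 37.2% and 26.8% of all UMIs of the 5 genes and 1.75% and 1.17% of all UMIs. The limit of 1% marks a range and not a cell type, as 228 and 192 cells had at least 0.5% and 61 and 48 cells at least 2%. Macrophage-like cells thinned to 2000 UMIs each gave the same picture. The tenth of cells with the most UMIs of the 5 genes held 68.9% and 67.5% of them, and 35.6% and 33.9% of the cells had 0 of the 5. The median cell had 1 UMI of the 5 genes, and sparse counts raise such a share. The median macrophage-like cell had 33 and 37 immediate early UMIs at that depth, and the middle 80% of cells ran from 14.2 to 63 and from 16.8 to 70.

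Among macrophage- and monocyte-like cells, those that carried hypoxia markers more often were rich in inducible heat shock transcripts. Of these, 35 of 494 (7.09%, 4.98 to 9.72%) and 23 of 302 (7.62%, 4.89 to 11.2%) reached 1%, against 24 of 1518 (1.58%, 1.02 to 2.34%) and 18 of 1739 (1.04%, 0.615 to 1.63%) of the other macrophage- and monocyte-like cells. At 1% the intervals did not overlap in either library. They overlapped at a limit of 5% in both libraries and at 0.1% in the Irg1-/- library. T cell-like cells had 17 of 1414 and 15 of 784, and NK cell-like cells 1 of 321 and 2 of 617. In the Irg1+/+ library the intervals of type 2 dendritic cell-like (8 of 178, 4.49%, 1.96 to 8.66%) and ungated cells (21 of 468, 4.49%, 2.80 to 6.78%) overlapped with that of the hypoxia-marked cells, as did those of the 5 classes with fewer than 100 cells. The level of the 5 genes was 2110 and 2081 CPM in hypoxia-marked and 883 and 905 CPM in the other macrophage- and monocyte-like cells. Without the cells at 1% or above these levels were 1092 and 911 against 630 and 775 CPM. Hypoxia-marked cells had medians of 6494 and 5765 UMIs, the others 5442 and 5794.

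**Figure D3:**
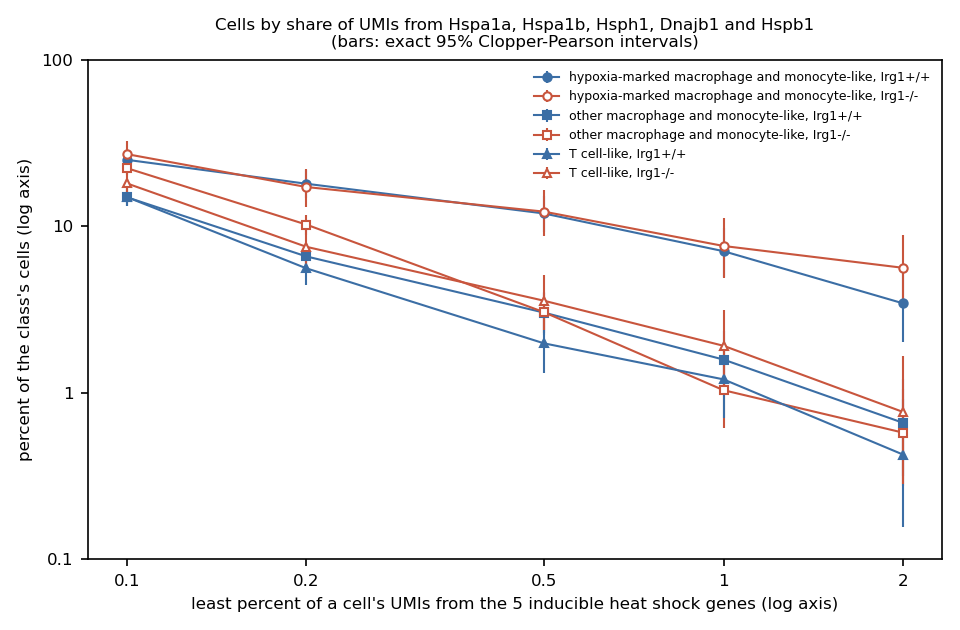
Percent of cells (y axis, log scale) with at least a given percent of their UMIs from *Hspa1a*, *Hspa1b*, *Hsph1*, *Dnajb1* and *Hspb1* (x axis, log scale) in hypoxia-marked macrophage- and monocyte-like, other macrophage- and monocyte-like and T cell-like cells. Blue is Irg1+/+, red Irg1-/-, and bars are exact 95% Clopper-Pearson intervals. At 1% the hypoxia-marked cells are at 7.09% and 7.62% and the other macrophage- and monocyte-like cells at 1.58% and 1.04%.

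The other genes in these cells were described without a test, since the cells were chosen by 5 members of the list. In macrophage- and monocyte-like cells, 59 and 41 cells at 1% or above were set against 1953 and 2000 below. Of the other 33 members 5 were at least 2-fold higher in both libraries, where 1.10% of all genes were. They were *Hsp90aa1* (3975 and 4656 CPM against 637 and 635), *Dnaja1* (1230 and 1405 against 315 and 352), *Hspe1* (591 and 597 against 213 and 181), *Hspd1* (574 and 385 against 240 and 163) and, as the only immediate early member, *Jun* (1664 and 2247 against 518 and 602). *Hspa8* lay at the limit, with ratios of 1.99 and 2.19. The summed immediate early level was also higher in the cells at 1% or above, with 21674 and 27181 CPM against 16438 and 18949. It made up 2.36% and 2.88% of the UMIs of the median cell against 1.59% and 1.77%. *Atf3* (ratios of 1.78 and 2.58), *Jund* (2.28 and 1.78), *Klf2* (2.38 and 1.93) and *Gadd45b* (1.56 and 3.09) passed 2-fold in 1 library. *Fos* was at 1723 and 2420 CPM against 1610 and 2184, and *Egr1* at 825 and 602 against 825 and 752. Of 50 further heat shock factors, chaperones and cochaperones that could be counted, 5 were at least 2-fold higher, namely the HSP70 nucleotide exchange factor *Bag3* (378 and 418 CPM against 84.3 and 67.7), *Ahsa1*, *Dnajb4*, *Hsp90ab1* and *Zfand2a*, and 1 was at least 2-fold lower (*Fkbp5*). The unfolded protein response list had 1 of 18 (*Sesn2*), the further immediate early genes 6 of 44 (*Bhlhe40*, *Gadd45a*, *Gadd45g*, *Plk2*, *Ppp1r15a* and *Rhob*) and the hypoxia markers 6 of 9. Outside the lists, the vasodilator peptide gene *Adm* had the highest of the smaller ratios, with 227 and 184 CPM against 17.9 and 8.87. In T cell-like cells, 17 and 15 cells were set against 1397 and 769, and 6 of 33 members (*Hsp90aa1*, *Dnaja1*, *Hspe1*, *Jun*, *Egr1* and *Atf3*) and 4 of 49 further heat shock genes (*Bag3*, *Dnajb4*, *Hmox1* and *Hsp90ab1*) were at least 2-fold higher, where 0.880% of all genes were. The macrophage- and monocyte-like cells at 1% had fewer UMIs (median 4344 and 3972 against 5686 and 5854.5) and no higher mitochondrial share (2.36% and 1.66% against 2.53% and 2.25%). Among them 59.3% and 56.1% carried hypoxia markers, against 23.5% and 13.95% of the others. The 3 nuclear-retained RNAs that could be counted had median ratios of 1.33 and 2.00 in these cells, with 0 at least 2-fold higher in both libraries. Their part in the values was not tested. Of the 17 and 15 T cell-like cells at 1%, 17.6% and 26.7% were in the top 5% of doublet scores, against 4.15% and 4.42% of the others. The method that gave these scores called 0 doublets, and the part of doublets in the values of these T cell-like cells was not tested.

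**Figure D4:**
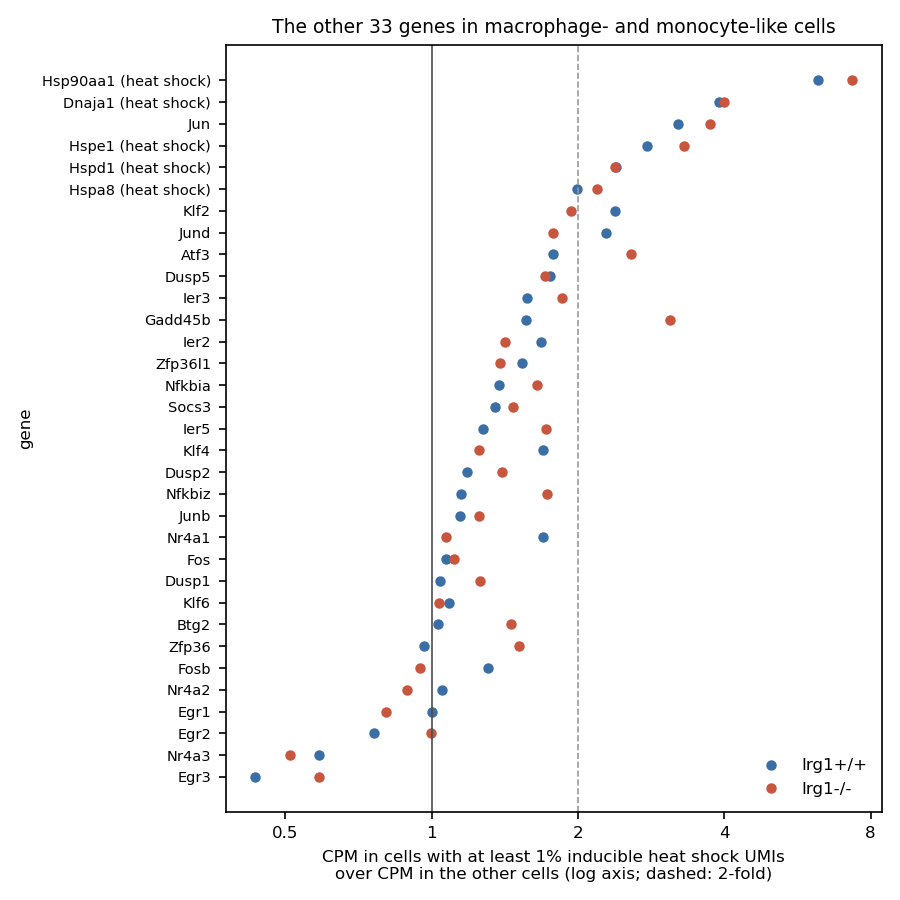
Ratio of CPM (x axis, log scale) in macrophage- and monocyte-like cells with at least 1% of UMIs from the 5 inducible heat shock genes over CPM in the other such cells, for the 33 genes that did not choose the cells (y axis), in the Irg1+/+ (blue) and Irg1-/- (red) library. *Hsp90aa1* (6.24 and 7.33), *Hspe1* (2.78 and 3.30) and *Jun* (3.21 and 3.74) are above 2 in both, and *Fos* (1.07 and 1.11) and *Egr1* (1.00 and 0.805) lie near 1.

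From cell to cell, 2 genes of the same program were on the median more correlated than 2 genes of different programs. Over 753 and 619 macrophage-like cells with at least 2000 UMIs, the correlation of *Hspa1a* with *Hspa1b* was 0.73 and 0.74, that of *Hspa1b* with *Hsp90aa1* 0.47 and 0.45 and that of *Fos* with *Fosb* 0.48 and 0.40. The median over pairs of heat shock genes was 0.23 and 0.21 and over pairs of immediate early genes 0.17 and 0.16, while pairs of 1 of each had a median of 0.034 and 0.037. T cell-like cells showed the same order (0.14 and 0.22, 0.081 and 0.079, 0.013 and 0.029). The sums over each program were weakly and positively correlated in macrophage-like cells thinned to 2000 UMIs (Pearson 0.12 and 0.25, Spearman 0.098 and 0.22). Sparse counts lower all these values, and cells share a library and differ in depth. Coding reads that could be given to either *Hspa1a* or *Hspa1b* may add to the correlation of that pair, which was not tested.

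Between the libraries, the summed immediate early level was higher in the library labelled Irg1-/-. In all kept cells it was 15099 CPM (15062 to 15137) in the Irg1+/+ and 18236 CPM (18192 to 18281) in the Irg1-/- library, a log2 ratio of 0.27. It was higher in the Irg1-/- library in all 12 classes, within counting error of equal in B cell-like (0.058, -0.017 to 0.13) and eosinophil-like cells (0.079, -0.0041 to 0.16). The 7 classes with at least 100 cells per library had intervals above 0, with log2 ratios from 0.08 in T cell-like to 0.41 in type 2 dendritic cell-like cells. The type 2 dendritic cell-like class also differed between the libraries in the 7 mast cell markers. They summed to 191 CPM in the Irg1+/+ library, with 2 markers at 0 and *Kit* the most abundant. In the Irg1-/- library they summed to 2053 CPM, with none at 0 and *Tpsb2* the most abundant, and 4 cells held 3400 of the 3618 UMIs. Without the 5 and 22 cells with at least 2 of these markers they summed to 141 and 103 CPM, and the immediate early ratio of the class was 0.42. With clusters in place of the gate it was 0.28, the highest of the 7 classes there. The 10 monocyte markers were also higher in the Irg1-/- library in all 12 classes, for example at 2064 and 2999 CPM in macrophage-like, 1418 and 2464 in type 1 dendritic cell-like and 2145 and 2917 in T cell-like cells. In all kept cells they summed to 3537 and 5631 CPM with none at 0, and *Plac8* was the most abundant. Their part in the immediate early difference was not tested. The immediate early sum was higher in the Irg1-/- library in the 7 classes under each of 11 alternative settings that gave values for them, with the lowest ratio at 0.065. Among all classes that a setting left to compare 1 turned lower under 3 of them (10 of 11 higher with under 5% mitochondrial UMIs, 8 of 9 with thinned cells, 10 of 11 with clusters). Scaling by trimmed means shifts the Irg1-/- library up by 0.07 in all kept cells, by 0.36 in neutrophil-like and by 0.16 in eosinophil-like cells and by under 0.07 in either direction in the other classes, and the median log2 ratio of all genes was -0.08 in all kept cells. When both libraries were given the same mix of classes the ratio was 0.19. As no replicate exists, the spread between tumors of 1 genotype is unknown and a genotype effect and a difference in handling cannot be told apart.

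Of the 28 immediate early members 23 were higher in the Irg1-/- library and 5 lower in all kept cells, with 25 higher under trimmed-mean scaling or with each cell weighted equally, and the median log2 ratio was 0.28. None was past 2-fold, as 7.24% of all genes were. *Btg2* had the largest ratio, with 439 CPM (433 to 446) and 753 CPM (744 to 762), a log2 ratio of 0.78, and it was higher in 7 of 7 classes, from 0.38 in type 1 dendritic cell-like to 0.82 in monocyte-like cells. *Dusp1* stood at 967 and 1313 CPM (0.44). Of the AP-1 genes, *Atf3* stood at 331 and 471 CPM (0.51), *Fos* at 1142 and 1586 (0.47), *Junb* at 806 and 1113 (0.47), *Fosb* at 444 and 603 (0.44), *Jun* at 393 and 488 (0.31) and *Jund* at 984 and 1171 (0.25). Of these all but *Jun* were higher in 7 of 7 classes, as were *Ier2*, *Ier5*, *Nr4a1*, *Dusp5* and, of the heat shock genes, *Hspa8*. *Zfp36*, with the most UMIs of the immediate early genes, stood at 1492 and 1729 CPM (0.21), and *Klf6* at 1127 and 1199 (0.09).

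The members that were lower in the Irg1-/- library included *Egr3*, at 112 and 71.4 CPM (log2 ratio -0.66, -0.73 to -0.59) and at 816 and 515 CPM in type 1 dendritic cell-like cells, which held 2777 of its 4736 and 1107 of its 2520 UMIs. *Egr2* stood at 170 and 149 CPM (-0.19) and *Nfkbia* at 865 and 786 (-0.14), a difference that changed sign to 0.039 when each cell was weighted equally. *Nfkbia* was at 1089 and 642 CPM in monocyte-like cells (-0.76) and at 766 and 988 in NK cell-like cells (0.37). *Nr4a3* (-0.01) and *Zfp36l1* (-0.02) were within counting error of 0. *Egr1* stood at 588 and 653 CPM overall (0.15), and was lower in the Irg1-/- library in T cell-like (441 and 273) and higher in type 2 dendritic cell-like cells.

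**Figure D5:**
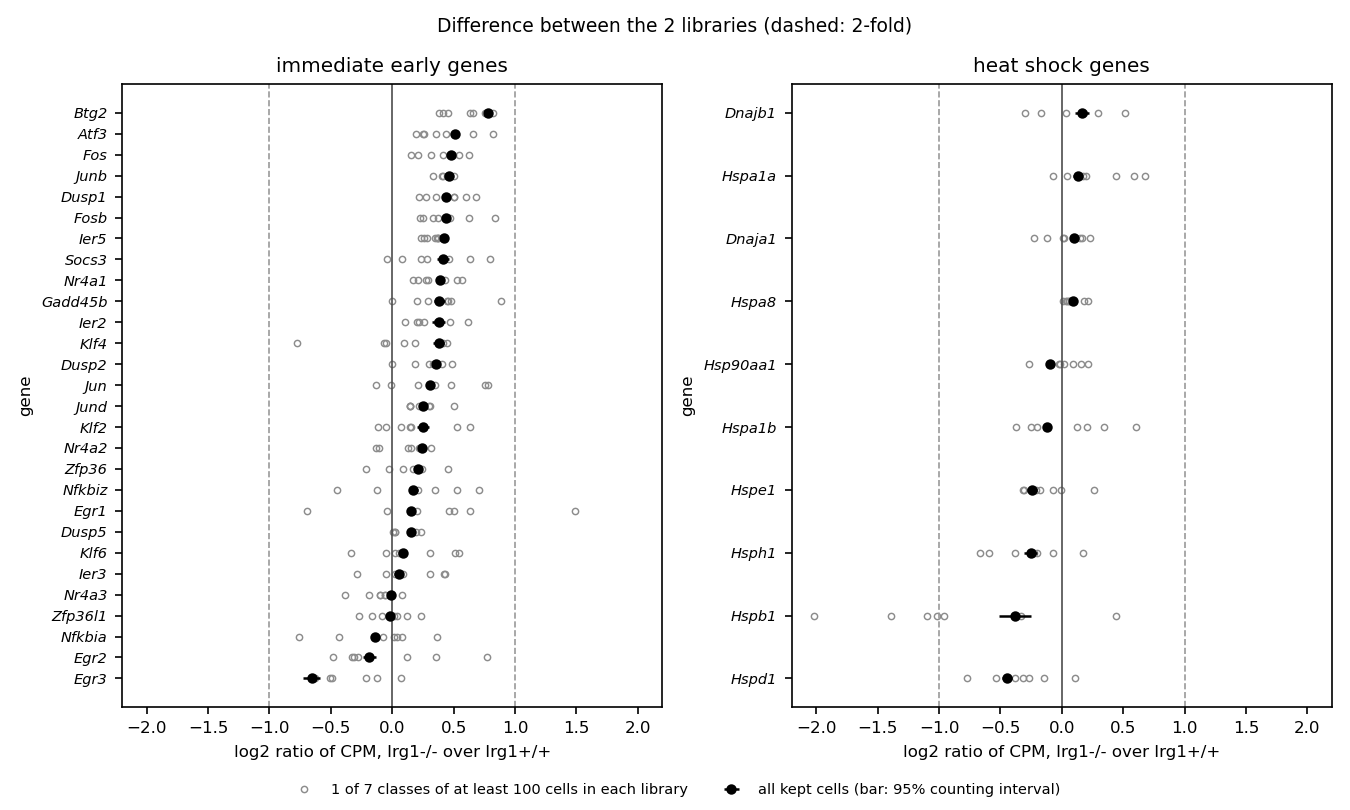
Log2 ratio of CPM, Irg1-/- over Irg1+/+ (x axis), for the 28 immediate early (left) and 10 heat shock genes (right). Black points are all kept cells with 95% counting intervals, open circles the 7 classes with at least 100 cells in each library, and dashed lines mark 2-fold. Of the immediate early genes 23 lie to the right of 0 and 5 to the left, and of the heat shock genes 4 and 6.

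The summed heat shock level was near equal in the libraries, with a log2 ratio of -0.017 (-0.026 to -0.0075) in all kept cells, and its sign changed under 5 alternative settings. By class it was higher in the Irg1-/- library in 5 of the 7 larger classes, from -0.13 in type 2 dendritic cell-like to 0.17 in NK cell-like cells. Of the 10 members 4 were higher, namely *Dnajb1* (112 and 126 CPM, 0.17), *Hspa1a* (290 and 317, 0.13), *Dnaja1* (386 and 414, 0.10) and *Hspa8* (1889 and 2007, 0.09). The other 6 were lower. *Hspd1* stood at 318 and 233 CPM (-0.45), *Hspb1* at 30.8 and 23.6 (-0.38), *Hsph1* at 159 and 133 (-0.25), *Hspe1* at 270 and 228 (-0.24), *Hspa1b* at 412 and 379 (-0.12) and *Hsp90aa1* at 797 and 747 (-0.09). T cell-like cells made up 22.5% of the kept cells of the Irg1+/+ and 13.5% of the Irg1-/- library, and *Hspd1* and *Hspe1* were high in them. The pair was highest in melanoma cell-like cells, which were fewer in the Irg1-/- library. Within T cell-like cells the pair was not lower in the Irg1-/- library (0.11 and 0.26), while both were lower in the other 6 of the larger classes. The part of the class mix in these ratios was not tested.

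Within the 7 larger classes, the background of genes past 2-fold between the libraries was 3.22% in macrophage-like, 3.51% in monocyte-like, 3.34% in T cell-like, 3.79% in NK cell-like, 4.22% in migratory, 3.76% in type 1 and 4.61% in type 2 dendritic cell-like cells. In the smaller CD4 T cell-like group it was 5.82%, and 1 of 28 immediate early members was past 2-fold higher and 3 lower. All 10 heat shock members were higher there in the Irg1-/- library, 2 of them past 2-fold. They summed to 4162 and 7047 CPM (log2 ratio 0.76), and few cells held most UMIs of the inducible genes in the Irg1-/- library, as given below. Over the 7 classes and the members with at least 20 UMIs in them, *Egr1* was past 2-fold in 1 class and *Hspb1* in 4, the last being type 2 dendritic cell-like cells with 21 and 12 UMIs, and no other member was past 2-fold in any. *Egr1* was at 259 CPM (230 to 290) and 728 CPM (689 to 769) in type 2 dendritic cell-like cells, a log2 ratio of 1.49 that was 1.93 without the 5 cells with the most *Egr1* in each library and 1.44 without the cells with at least 2 mast cell markers. The summed mast cell markers of this class were at 191 and 2053 CPM, as above. When the cells were clustered without the members and the clusters named from the same markers, it was 0.47. *Hspb1* was at 50.3 CPM (46.1 to 54.8) and 23.5 CPM (20.1 to 27.4) in macrophage-like cells, at 33.2 and 16.3 in type 1 and at 27.1 and 6.47 in migratory dendritic cell-like cells, with log2 ratios of -1.10, -1.03 and -2.07. These rest on few cells, since 252 of the 530 *Hspb1* UMIs of macrophage-like cells in the Irg1+/+ library came from 5 cells, and 65 of the 113 of type 1 dendritic cell-like cells from 1 cell. With each cell weighted equally the ratio was -0.72 in macrophage-like and -0.70 in migratory dendritic cell-like cells, and without the top 5% of doublet scores it was -2.43 in type 1 dendritic cell-like cells.

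A single cell could set the inducible heat shock level of a small class. In the Irg1+/+ library 1 plasmacytoid dendritic cell-like cell held 243 of 334 UMIs of the 5 genes, and the log2 ratio of the class was -1.47 with all cells and 0.33 without the top cell of each library. One B cell-like cell held 181 of 327 UMIs in the Irg1+/+ and another 179 of 259 in the Irg1-/- library. In all kept cells the log2 ratio of the 5 genes was -0.04, and 0.18 without the cells at 1% or above.

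Of lists of related genes, the further 50 AP-1 and immediate early genes had 26 raised in some class by the same 3-fold measure, which 24.8% of all genes that could be counted met. The DNA damage and growth arrest gene *Gadd45a* led them with 1229 and 1733 CPM in eosinophil-like cells against 40.5 and 46.7 elsewhere, next to *Ccn1* in melanoma cell-like cells (256 and 84.1 against 2.05 and 0.926) and *Arc* in migratory dendritic cell-like cells (91.8 and 135 against 9.33 and 14.6). In all kept cells 49 of them could be compared between the libraries, of which 0 were at least 2-fold higher and 3 at least 2-fold lower in the Irg1-/- library (*Ccn1*, *Egr4* and *Npas4*), near the 7.24% of all genes past 2-fold in either direction, with a median log2 ratio of 0.09. The 12 early cytokine and chemokine genes had 11 raised in some class, foremost in neutrophil-like cells, where the neutrophil attractants *Cxcl3* (692 and 1683 CPM against 40.1 and 22.8) and *Cxcl2* (16992 and 21172 against 1433 and 975) and the chemokine *Ccl3* (5117 and 8304 against 558 and 468) led. Unlike the immediate early members, their median log2 ratio between the libraries was negative, at -0.32 in all kept cells, -0.41 in macrophage-like, -0.80 in monocyte-like, -0.63 in T cell-like and -0.20 in NK cell-like cells. In neutrophil-like cells it was 0.65 over the 10 genes with enough UMIs, and the 12 genes summed to 39417 and 54514 CPM. Of the 10, 3 were at least 2-fold higher (*Cxcl3*, *Ptgs2* and *Il6*, the last with 0 and 35 UMIs) and 0 lower, where 17.3% of all genes in this small class were past 2-fold. *Cxcl1* was the 1 of 12 at least 2-fold lower in all kept cells (181 and 72.3 CPM), 5 of 12 were so in monocyte-like cells (*Il1a*, *Cxcl1*, *Cxcl2*, *Cxcl3* and *Il10*, with *Cxcl2* at 2220 and 1058 CPM, where 3.51% of all genes were past 2-fold), and 0 of 12 were at least 2-fold higher in all kept or monocyte-like cells. In T cell-like cells 4 of 12 were at least 2-fold lower (3.34% of all genes past 2-fold). The count was 1 of 12 in macrophage-like (3.22%) and 1 of 9 in NK cell-like cells (3.79%), with 0 higher in these 3 classes. Markers of other classes also differed between the libraries in T cell-like cells. The melanoma cell markers were at 192 and 49.6 CPM there and the monocyte markers at 2145 and 2917. The part of RNA from other cells in the cytokine and chemokine values was not tested. The 58 further chaperone genes had 9 raised in some class, a smaller share than the 24.8% of all genes, among them the collagen chaperone *Serpinh1* (439 and 372 CPM against 4.52 and 2.35) and the small heat shock gene *Cryab* (159 and 180 against 2.95 and 2.14) in melanoma cell-like cells. Between the libraries 3 of 58 were at least 2-fold lower (*Serpinh1*, *Cryab* and *Hspb8*) and 0 higher, near the 7.24% of all genes, with a median of -0.15. The Irg1-/- library held 9 melanoma cell-like cells against 60, and their part in these values was not tested. The unfolded protein response list had 5 of 20 raised in some class, near the 24.8% of all genes, among them *Trib3* in melanoma cell-like cells (36.0 and 36.0 CPM against 4.26 and 2.81), and 0 of 20 past 2-fold between the libraries. Nuclear-retained RNA (1651 and 1635 CPM for 4 genes, *Malat1* the most abundant) had 2 of 4 raised in some class, both in eosinophil-like cells as given above, and differed between the libraries by less than 2-fold for all 4, and hemoglobin was near 0 (0.0712 and 0.198 CPM for 4 genes).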

How the data were processed

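Cd45+ cells of pooled B16-F10 tumors were captured with the BD Rhapsody whole-transcriptome assay, 1 library per genotype. The authors trimmed reads with fastp, found barcodes with UMI-tools, mapped to the mouse genome (Ensembl annotation) with STAR and deposited raw UMI counts per gene and cell, with no cell types. CASAVA (version 1.8) is named in the submitters' processing notes. UMIs mark transcript ends. No source used here states a removal of free RNA or doublets before deposit.

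A cell was kept if it had more than 200 detected genes and mitochondrial UMIs below 10%, mitochondrial genes were then left out, and UMIs were summed over cells and scaled to CPM. A cell joined the class whose marker UMIs, as a share of its own UMIs, were highest relative to the best-marked cells of that class (at least 2 markers, at least 0.1 of that reference, 1.5 times the next class). This gate was set after the files were seen, from the markers only. Mast cell markers were listed but not gated. Members and gene lists were chosen with earlier results of these data known. Named were the members with the most UMIs, those at least 3-fold higher in 1 class, those past 2-fold between libraries in a class of at least 100 cells, up to 3 genes of each other list and the genes most alike in pattern. Other genes given with values were chosen after their values were seen.

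Intervals are exact Poisson, Clopper-Pearson or conditional binomial, at 95%, and cover counting error only. With 1 library per genotype no test was run. The labels name no batch. Scrublet called 0 doublets and so did not work, and the top 5% of its scores (636 cells) were left out as an alternative. Other alternatives were under 5% mitochondrial UMIs, the mean of each cell's CPM, thinning to 2000 UMIs, scaling by trimmed means (TMM), a denominator without the members, a stricter gate, Leiden clusters made without the members, an equal mix of classes and other minimum UMIs. Leaving out shallow, shared-barcode, melanoma cell-like, mast marker-bearing or top cells was added after seeing the data. Calculations used Python 3.11.15, scanpy 1.11.5, scipy 1.17.1 and edgeR 4.0.16 (trimmed means only), and the counting steps were tested on simulated data.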

Additional observations from a re-analysis of the deposited data

How the results depend on the processing

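The log2 ratio of the summed immediate early level in all kept cells (0.27) stayed above 0 under every alternative run. It was 0.26 with under 5% mitochondrial UMIs, 0.30 as the mean of each cell's CPM, 0.25 with thinned cells, 0.35 with TMM scaling, 0.19 with an equal mix of classes, 0.28 without the most abundant member, 0.28 as the median of the members, 0.25 without melanoma cell-like cells and 0.29 without cells with at least 2 mast cell markers. The ratio of the heat shock sum (-0.017) was -0.029 without the top doublet scores, -0.093 without the most abundant member and -0.107 as the median of the members, and it turned above 0 as the mean of each cell's CPM (0.010), with thinned cells (0.036), with TMM scaling (0.057), with an equal mix of classes (0.022) and without melanoma cell-like cells (0.0017). The count of heat shock members at least 2-fold higher in myeloid-like cells was 1 in place of 0 without the top doublet scores, with thinned cells and with clusters. The count past 2-fold between the libraries in macrophage-like cells was 0 in place of 1 as the mean of each cell's CPM and with thinned cells. In macrophage-like cells the heat shock ratio turned to 0.052 and 0.068 under the same settings, and *Nfkbia* in all kept cells to 0.039 under the first. Without the top doublet scores the heat shock ratio turned to 0.19 in B cell-like and 0.14 in plasmacytoid dendritic cell-like cells. The fold of *Nfkbiz* in eosinophil-like cells was 0.893 with thinned cells. The causes were not tested. No paired analysis was possible because each genotype has 1 library. Depth limits the granulocyte-like classes most, where 5 of 10 heat shock members in neutrophil-like and 7 of 10 in eosinophil-like cells had too few UMIs to be counted.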

Other observations

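In CD4 T cell-like cells *Egr1* stood at 2857 CPM (2707 to 3014) in the Irg1+/+ and 685 CPM (600 to 778) in the Irg1-/- library, a log2 ratio of -2.06, against 1.49 in type 2 dendritic cell-like cells, where it was 0.47 with clusters in place of the gate and where mast cell markers were at 191 and 2053 CPM (1.44 without the cells with at least 2 of these markers). The UMIs numbered 1345 and 237, 95 of 155 and 69 of 128 cells had at least 1, and the ratio was -2.40 without the 5 cells with the most *Egr1* in each library. This class and gene were chosen after their values were seen, the difference was not tested, and the summed immediate early level of these cells was near equal (19085 and 18729 CPM), while 18 of the 28 members were higher in the Irg1-/- library, with a median log2 ratio of 0.24, and 1 was past 2-fold higher and 3 lower, where 5.82% of all genes were past 2-fold. The 5 inducible heat shock genes were at 712 and 2551 CPM in the same cells, where 5 cells held 619 of 883 UMIs in the Irg1-/- library, and the log2 ratio was 1.84 with and 0.58 without the top 5 cells of each library.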
